A study of Mus musculus with 6 samples.

Results

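The genes described here encode the chaperones of the endoplasmic reticulum (ER), the sensors of the unfolded protein response, and the proteins that move chains into the ER or out of it for degradation. They are 31 genes taken by name from the 18828 genes of the table, and all 31 passed the filter on low counts. By role they are 4 sensors or transcription factors, 11 chaperones and cochaperones, 4 disulfide isomerases, 8 genes of ER-associated degradation and 4 genes of the translocon. The cells were T cells from the spleens of wild-type FVB mice, an inbred strain. They were stimulated with beads carrying antibodies to CD3 and CD28, which mimic antigen and costimulation, for 48 h. During that time 1 group received 50 µM urolithin A (UA), a metabolite that gut bacteria make from ellagitannins, and the other received its solvent DMSO. Both groups thus held stimulated cells, and each had 3 libraries, lettered a to c. Age and sex are not given in the labels. Nothing says that the letters mark separate mice or cultures, so p-values here reflect how much these libraries vary, and that variation could be purely technical.

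The ER folds proteins that are bound for the cell surface or for secretion. When unfolded chains pile up, the chaperone BiP leaves the sensors IRE1, PERK and ATF6, and all of them signal to the nucleus. IRE1 splices the mRNA of Xbp1 into the form that encodes the active transcription factor, ATF6 is cut free from the membrane to act as one, and PERK phosphorylates eIF2α, which slows translation and favours translation of ATF4. Their targets include chaperones, disulfide isomerases and degradation genes. T cells are known to engage this response when they are activated, grow and begin to secrete cytokines. Gene counts cannot separate spliced from unspliced Xbp1 mRNA, and they show neither cleavage of ATF6 nor phosphorylation of PERK.

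The libraries held 12738059 to 19081219 counts. The 18S rRNA gene Rn18s made up 17.6% of DMSO library b and 3.97% of UA library a, against 0.0687% to 0.887% of the others. Values are counts per 1000000 (CPM), scaled by trimmed means of M values over all genes tested. Log2 fold changes (UA over DMSO) come from limma voom and are given ± SE, and a gene was called when its p, adjusted by Benjamini-Hochberg over 14444 genes, was under 0.05. T cell markers summed to 2718 to 2879 CPM with DMSO and 2729 to 2938 CPM with UA, so the labelled cell type was there in both groups. Of the T cell markers, 2 of 11 were called higher and 2 lower, beside 17.7% higher and 16.0% lower among all genes tested. The summed markers of B cells, of plasma cells, of macrophages, and of red cells and platelets were above every DMSO library in every UA library. The B cell list, which is mostly Ighm, summed to 164 to 180 CPM with DMSO and 207 to 251 CPM with UA, with 3 of 7 tested genes called higher. Among plasma cell markers, which matter here because such cells are rich in ER, Jchain ran from 0.0531 to 0.278 CPM with DMSO and from 0.624 to 1.43 CPM with UA. Sdc1 was at 3.77 to 4.64 CPM with DMSO and at 6.12 to 10.1 CPM with UA. Mzb1 was under 1 CPM in all 6 libraries. The plasma cell list summed to 559 to 578 CPM with DMSO and 599 to 755 CPM with UA. Nearly all of that was Irf4 and Prdm1, which activated T cells also express. Of its 5 tested genes 4 were higher and 1 lower. Irf4 rose, from 475 to 490 CPM with DMSO to 541 to 697 CPM with UA. The lower gene was Prdm1, at 75.9 to 79.9 CPM with DMSO and 39.2 to 46.3 CPM with UA. Macrophage and monocyte markers summed to 3.90 to 5.45 CPM with DMSO and 5.93 to 6.92 CPM with UA, and Cd68, its 1 tested gene, was not called. The sums for dendritic cells, NK cells, and red cells and platelets stayed under 10 CPM in every library, with 1, 0 and 1 genes called higher. Whether such cells had a part in the results below was not tested. In these bulk samples, fewer cells of a type and less RNA per cell cannot be told apart.

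UA treatment changed single genes of this set in both directions, and the median of the set was close to that of all genes. Of the 31 genes 13 were called (41.9%), against 33.7% of all genes tested, an excess that some alternative fits below did not show. Of the 13 genes, 4 were higher (12.9%, against 17.7% of all genes) and 9 were lower (29.0%, against 16.0%). The genes that rose were the PERK gene Eif2ak3, the cochaperone gene Dnajc3, the isomerase gene Pdia3 and the degradation gene Edem1. Those that fell were Atf6, Xbp1, Hsp90b1, Sdf2l1, Manf, Creld2, P4hb, Herpud1 and Sec61a1. The values of the groups did not overlap for 16 genes, 7 of them above and 9 below DMSO, beside 46.8% of all genes tested whose groups did not overlap. The median log2 fold change was -0.01 over the set and 0.01 over all genes tested. The median absolute log2 fold change was 0.16 over the set and 0.25 over all genes. Among the 13 called genes it ran from 0.23 for Manf and Pdia3 to 0.72 for Herpud1. Together the set held 1.05%, 1.05% and 1.07% of the counts outside ribosomal RNA in DMSO libraries a to c. In UA libraries a to c it held 1.02%, 0.999% and 1.04%, each below every DMSO library. For UA library c the gap was very small (1.044%, against 1.046% in DMSO libraries a and b).

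**Figure D1:**
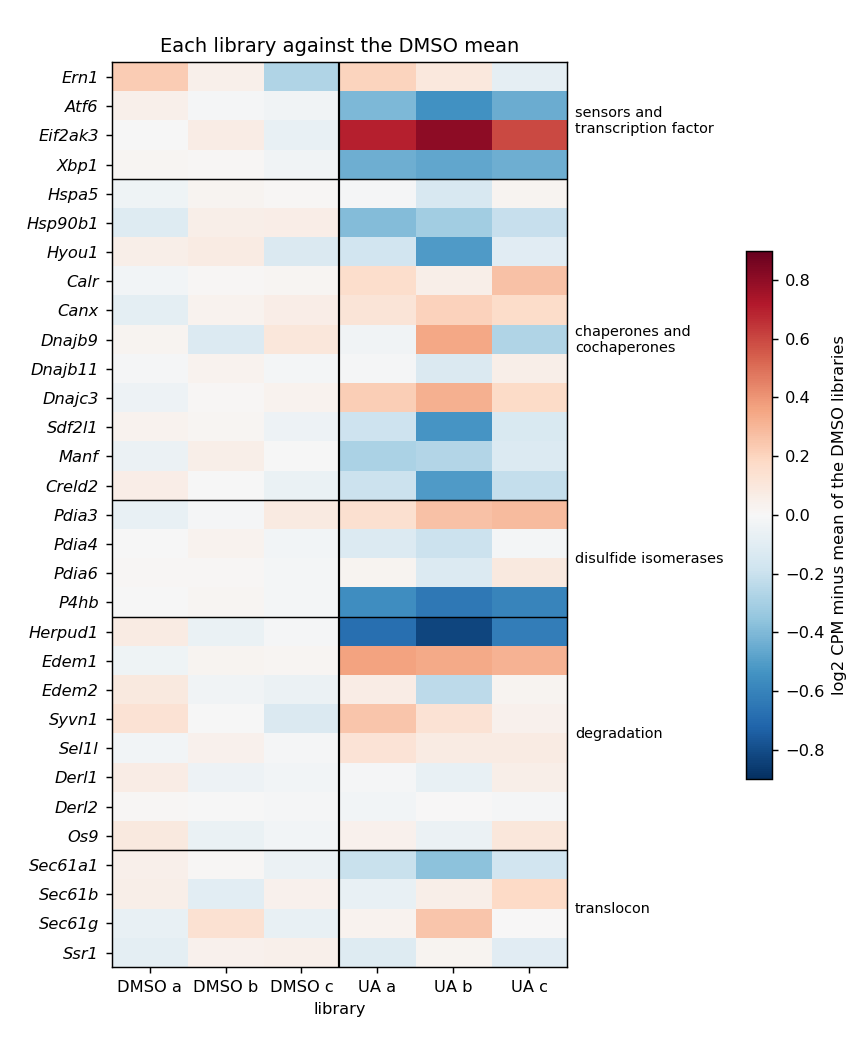
Each cell of the heatmap gives the log2 CPM of a gene (rows, grouped by role) in 1 library (columns) minus the mean of the 3 DMSO libraries. Eif2ak3 and Edem1 are red and Herpud1, P4hb, Atf6 and Xbp1 are blue in all 3 UA libraries, while most other rows are pale.

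Scaling to the total count alone, which counts the ribosomal RNA of DMSO library b as depth, left 6 of the 13 calls, 2 higher and 4 lower. Of all genes called, 70.6% were then higher, against 52.6% with the scaling used. The same 6 genes, Eif2ak3, Atf6, Xbp1, P4hb, Herpud1 and Edem1, were called under all 17 alternatives tried. Without DMSO library b 7 of the 31 genes were called, beside 3490 of 14974 genes tested. Without DMSO library a 8 were called, beside 3683 of 14842. With DMSO library b and UA library a both left out those 6 were called, beside 2666 of 14693 genes tested, and the other 7 were not. With total-count scaling 3169 of 14444 genes tested were called. In each of these fits the share of the set called was close to that of all genes. Calls lost without 1 library are given with each gene below.

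The promoters of some of these genes, chaperones above all, held sequence elements that the choice of the set did not use. The ER stress response element (ERSE) is CCAAT, 9 bases of any kind, then CCACG. It is bound by NF-Y at its first part and by ATF6 at its last. ERSE-II is ATTGG, 1 base, then CCACG. RefSeq promoter windows of GRCm38.p6, from 250 bases before to 50 bases after a transcription start, were found for 26 of the 31 genes, and both strands were searched. An exact ERSE was present for 8 of the 26 (30.8%), against 0.137% of the 27025 genes with a window and 0.208% of the 10082 of them that entered the test. The 8 were Hspa5, Hsp90b1, Calr, Canx, Dnajc3, Creld2, Pdia6 and Syvn1. Hsp90b1 held 2 matches. ERSE-II was present for Dnajb11 and Herpud1 (7.69%, against 0.0444% of all genes). By role, either element was found for 7 of 9 chaperones and cochaperones with a window, 1 of 4 disulfide isomerases, 2 of 7 degradation genes, 0 of 3 sensors and 0 of 3 translocon genes. The matches lie on the strand of the gene for Hspa5, Canx, Dnajc3, Pdia6 and Syvn1, on the other strand for Calr and Creld2, and 1 on each strand for Hsp90b1. These elements were known from genes of this kind, so their frequency describes the set and is no independent result.

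The 250 bases before the start are printed 5′ to 3′ for 4 genes that share such an element and differ in outcome. Hspa5 was not called, Hsp90b1 was lower, Dnajc3 was higher and Herpud1 was lower. Capitals mark both ends of the ERSE in the first 3. In Herpud1 they mark, from the left, a CARE core and then the ERSE-II.
Hspa5 (chr2:34771840-34772089, + strand): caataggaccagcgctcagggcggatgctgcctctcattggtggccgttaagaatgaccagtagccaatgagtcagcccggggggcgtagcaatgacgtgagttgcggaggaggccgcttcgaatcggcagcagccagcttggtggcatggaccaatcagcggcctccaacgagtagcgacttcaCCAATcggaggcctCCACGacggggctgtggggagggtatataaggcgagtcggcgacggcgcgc
Hsp90b1 (chr10:86705445-86705694, - strand): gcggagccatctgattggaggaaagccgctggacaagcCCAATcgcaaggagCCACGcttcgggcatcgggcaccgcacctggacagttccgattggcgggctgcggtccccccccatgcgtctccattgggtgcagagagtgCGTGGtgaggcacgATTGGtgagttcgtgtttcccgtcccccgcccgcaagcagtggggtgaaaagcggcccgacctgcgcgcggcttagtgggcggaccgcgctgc
Dnajc3 (chr14:118937682-118937931, + strand): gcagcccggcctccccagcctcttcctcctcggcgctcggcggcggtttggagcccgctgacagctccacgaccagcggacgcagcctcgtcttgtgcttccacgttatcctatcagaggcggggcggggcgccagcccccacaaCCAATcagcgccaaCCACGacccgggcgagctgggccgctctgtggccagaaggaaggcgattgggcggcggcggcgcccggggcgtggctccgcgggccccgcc
Herpud1 (chr8:94386179-94386428, + strand): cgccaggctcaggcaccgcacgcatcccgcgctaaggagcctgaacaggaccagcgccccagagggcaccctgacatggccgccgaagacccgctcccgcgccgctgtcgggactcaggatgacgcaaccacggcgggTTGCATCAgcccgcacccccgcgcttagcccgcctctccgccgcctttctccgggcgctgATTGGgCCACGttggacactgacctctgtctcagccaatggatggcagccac

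Counted from the transcription start, the ERSE of Hspa5 spans -65 to -47 and that of Dnajc3 spans -105 to -87. Those of Hsp90b1 span -212 to -194 and -107 to -89. The ERSE-II of Herpud1 spans -52 to -42. The same window of Herpud1 holds TTGCATCA, the core of the CARE element that ATF4 and CHOP bind, from -112 to -105. That core was in 1 of 26 windows of the set (3.85%) and in 1.03% of all genes with a window. The UPRE core TGACGTGG, an XBP1 site, was in 0 of 26 and in 0.714% of all genes. Of the 10 genes with an ERSE or ERSE-II, 1 was higher, 3 were lower and 6 were not called, beside 17.7% higher and 16.0% lower among all genes tested. Of the 16 with a window and neither element, 3 were higher, 3 were lower and 10 were not called. These counts are too small to set the genes with an element apart from the rest, and a match in a window does not show that a factor was bound there.

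**Figure D2:**
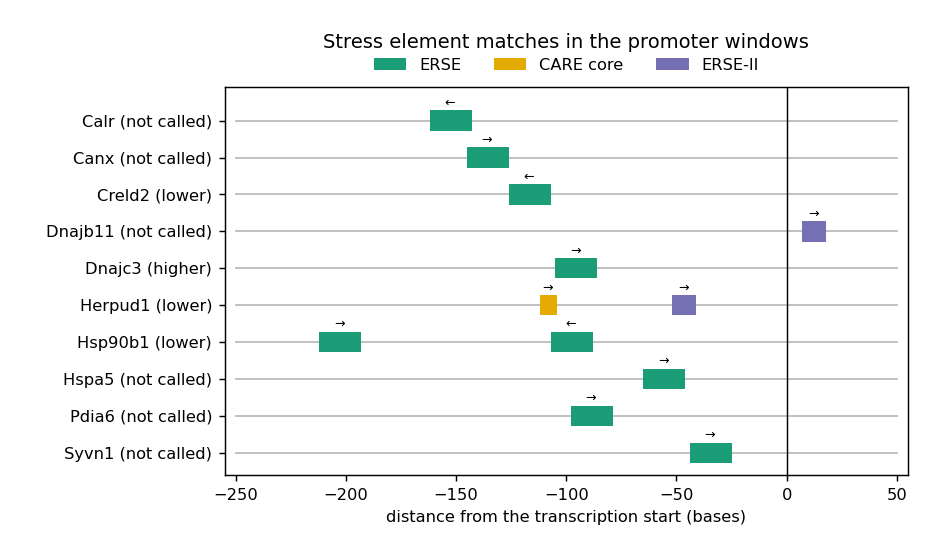
Positions of the ERSE, ERSE-II and CARE core matches are drawn along the promoter windows of the 10 genes that hold an ERSE or ERSE-II, against distance from the transcription start in bases, with an arrow for the strand relative to the gene. All ERSE matches lie between -212 and -26, and the call after each name differs between genes that share the element.

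The sensors parted. Transcripts of the PERK gene Eif2ak3 rose while those of Atf6 and Xbp1 fell, and the IRE1 gene Ern1 did not pass. Eif2ak3 (chromosome 6, 70821499 to 70882229) was at 77.0, 80.8 and 73.5 CPM in DMSO libraries a to c and at 125.7, 134.9 and 116.5 CPM in the UA libraries. Every UA library was above every DMSO library, and the rise of 0.71 ± 0.08 on the log2 scale was a 1.63-fold increase (limma adjusted p = 9.10e-06). It was the largest rise among the 31 genes. Gene positions here and below are those of the deposited table, whose build is not stated and differs from that of the promoter windows.

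Atf6 (chromosome 1, 170532243 to 170695340) encodes the membrane-bound precursor of the transcription factor. It was at 73.9, 71.2 and 70.1 CPM with DMSO and at 54.2, 48.9 and 52.4 CPM with UA. The groups lay well apart, and Atf6 fell by 27.8%, more than the spread in either group (log2 fold change -0.47 ± 0.08, limma adjusted p = 2.98e-04). Xbp1 (chromosome 11, 5470659 to 5475893) was at 665, 660.3 and 643 CPM with DMSO and at 484, 473 and 484 CPM with UA. Its libraries agreed within 1.77% (coefficient of variation) with DMSO and 1.31% with UA, and its log2 fold change was -0.45 ± 0.06 (limma adjusted p = 7.64e-05). Ern1, whose product splices Xbp1 mRNA, was a low transcript at 12.4 to 17.7 CPM with DMSO and 14.2 to 17.4 CPM with UA. Those ranges overlap, and its log2 fold change of 0.09 had a 95% interval of -0.20 to 0.39, so the values allow a modest change either way. Its coefficient of variation was 17.7% with DMSO and 10.2% with UA.

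**Figure D3:**
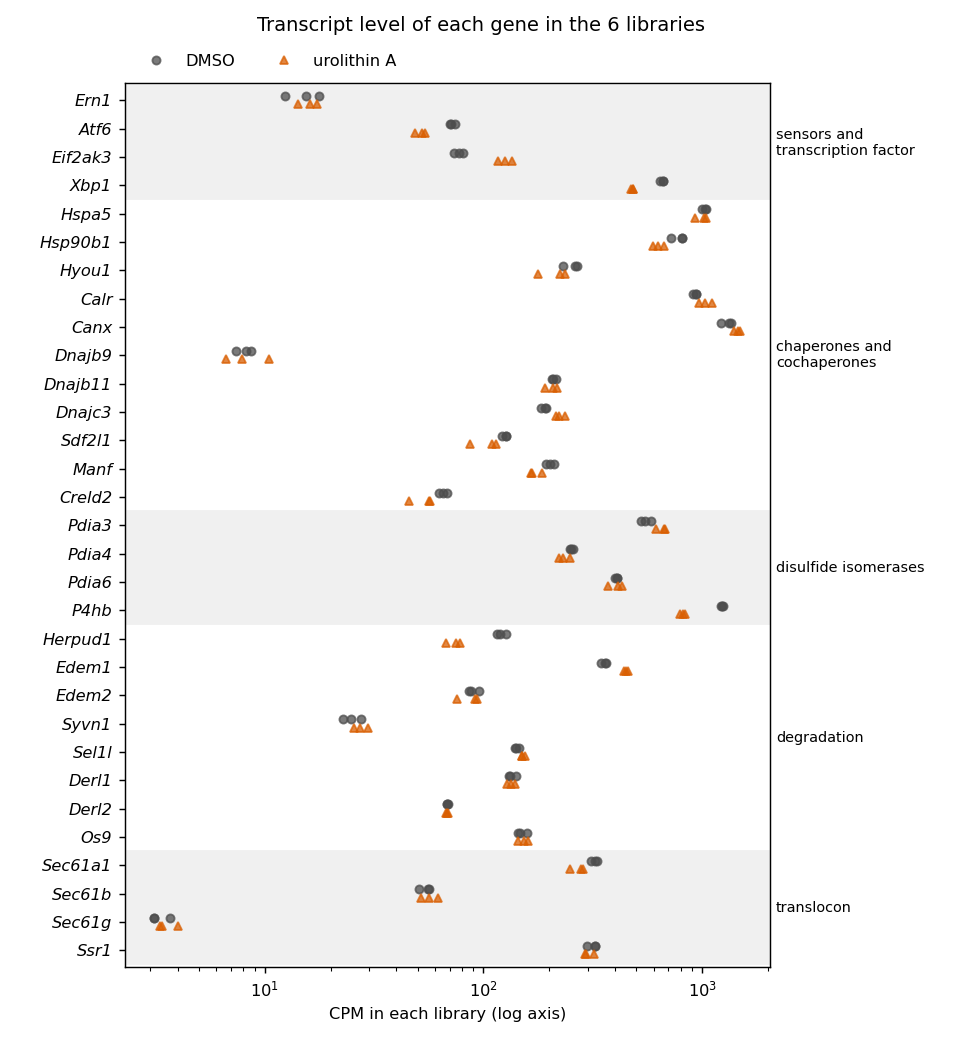
Each point is the CPM of a gene in 1 library, on a log axis, with DMSO as grey circles and UA as orange triangles, grouped by role. The genes span from 3.13 CPM (Sec61g) to 1495 CPM (Canx), and the groups are visibly apart for Atf6, Eif2ak3, Xbp1, P4hb, Herpud1 and Edem1.

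Among the 11 chaperones and cochaperones, 1 rose (9.09%, beside 17.7% of all genes tested), 4 fell (36.4%, beside 16.0%) and 6 did not pass. Hspa5 encodes BiP, the Hsp70 of the ER that holds the sensors inactive and the gene most often read as a measure of ER stress. It was at 999, 1042 and 1032 CPM with DMSO and at 1016, 926 and 1040.0 CPM with UA. The groups overlap, and UA library b alone lies below all others. The log2 fold change of Hspa5 was -0.05 ± 0.07 (95% interval -0.19 to 0.10, limma adjusted p = 0.640), so the values allow a change within that interval. Total-count scaling turned its sign, to 0.05, with no call.

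Hsp90b1 encodes GRP94, the Hsp90 of the ER, which folds integrins and Toll-like receptors. It was at 719, 809 and 812 CPM with DMSO and at 595, 628 and 673 CPM with UA. The highest UA library stayed below the lowest DMSO library, and Hsp90b1 fell by 19.0% (log2 fold change -0.30 ± 0.07, limma adjusted p = 0.00526). Hsp90b1 was called in all 6 fits that left out 1 library, with limma adjusted p up to 0.0335, but not with total-count scaling (log2 fold change -0.21, adjusted p = 0.279) or without DMSO library b and UA library a together (-0.25, adjusted p = 0.146).

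Creld2, Sdf2l1 and Manf, which encode small ER proteins that are known ER stress targets, fell as well. Creld2, a disulfide isomerase-like protein, was at 68.5, 65.5 and 62.9 CPM with DMSO and at 57.3, 45.9 and 56.6 CPM with UA. Sdf2l1, a partner of the BiP cochaperones, was at 127.5, 126.3 and 121.0 CPM with DMSO and at 109.6, 86.5 and 113.6 CPM with UA. Both were lowest in UA library b, and for both the groups did not overlap. The log2 fold changes were -0.31 ± 0.09 for Creld2 (limma adjusted p = 0.0181) and -0.29 ± 0.09 for Sdf2l1 (limma adjusted p = 0.0293). Manf, a secreted ER protein that binds BiP, was at 194.1, 209.4 and 201.0 CPM with DMSO and at 165.6, 167.3 and 184.5 CPM with UA. Its log2 fold change was -0.23 ± 0.07 (limma adjusted p = 0.0246), and the groups again did not overlap. In the table Manf overlaps Rbm15b on the same strand and Dcaf1 on the other, both of which had lower means with UA (97.4 against 125.6 CPM and 134.7 against 173.1 CPM). How overlapping genes were counted is not stated in the labels, so the count of Manf is uncertain.

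Dnajc3, which encodes p58IPK, an Hsp40 cochaperone of BiP and inhibitor of PERK, rose. It was at 184.1, 190.9 and 194.1 CPM with DMSO and at 221.0, 236.6 and 213.7 CPM with UA. The increase was 17.9% (log2 fold change 0.24 ± 0.07, limma adjusted p = 0.0160). The calls of Creld2, Sdf2l1, Manf and Dnajc3 each ended without 1 library. Without DMSO library a, the limma adjusted p was 0.0791 for Creld2, 0.0968 for Sdf2l1 and 0.0707 for Dnajc3. Without DMSO library b it was 0.0530 for Creld2, 0.0818 for Sdf2l1, 0.0922 for Manf and 0.0822 for Dnajc3. Manf also lost its call without DMSO library c (0.0695) or UA library a (0.0734), that of Dnajc3 without UA library a (0.0514), and that of Sdf2l1 without UA library b (0.0678). With total-count scaling the limma adjusted p was 0.314, 0.354, 0.540 and 0.0752 for Creld2, Sdf2l1, Manf and Dnajc3, with no change of direction.

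Calr and Canx encode calreticulin and calnexin, the lectin chaperones that hold glycoproteins through their sugars. Calr was at 912, 936 and 938 CPM with DMSO and at 1035, 965 and 1114 CPM with UA. Canx was at 1216, 1321 and 1353 CPM with DMSO and at 1403, 1495 and 1455 CPM with UA. In both cases every UA library was above every DMSO library, yet neither passed the adjusted threshold. The log2 fold change was 0.16 ± 0.07 for both, with a limma adjusted p of 0.0910 for Calr and 0.0724 for Canx. Calr did pass without UA library b (log2 fold change 0.21, limma adjusted p = 0.00558).

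Hyou1, which encodes the ER Hsp110 that recharges BiP, was at 264, 267 and 232 CPM with DMSO and at 225, 178 and 237 CPM with UA. The ranges overlap and the log2 fold change of -0.26 ± 0.10 just missed the threshold (limma adjusted p = 0.0581). It passed without DMSO library c (log2 fold change -0.33, limma adjusted p = 0.0405) and without UA library c (-0.34, adjusted p = 0.0180). The Hsp40 cochaperones Dnajb11 and Dnajb9 did not pass. Dnajb11 was at 206 to 214 CPM with DMSO and 192 to 217 CPM with UA. Dnajb9, a feedback inhibitor of IRE1, was at only 7.37 to 8.70 CPM with DMSO and 6.63 to 10.4 CPM with UA. Its interval of -0.32 to 0.38 on the log2 scale allows changes within that range.

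The 4 disulfide isomerases form and reshuffle disulfide bonds, and they went apart. P4hb encodes PDI, the founding member, which is also a subunit of collagen prolyl hydroxylase. P4hb (chromosome 11, 120451124 to 120464079) was at 1234, 1250.0 and 1219 CPM with DMSO and at 836, 789 and 817 CPM with UA. The gap between the groups was far wider than the spread in either, and P4hb fell by 34.1% (log2 fold change -0.60 ± 0.06, limma adjusted p = 4.69e-06), with the smallest p of the 31 genes. Per kilobase of exon, P4hb ranked 1 of the 31 genes with DMSO, at 432 ± 5.50 CPM per kb (SD, n = 3), and 3 with UA, at 285 ± 8.36 CPM per kb, below Calr and Canx.

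Pdia3 encodes ERp57, the isomerase that works with calnexin and calreticulin and is part of the complex that loads MHC class I. It was at 528, 549.5 and 586 CPM with DMSO and at 613, 666 and 675 CPM with UA. The groups did not overlap, and the rise was 17.4% (log2 fold change 0.23 ± 0.07, limma adjusted p = 0.0185). Pdia3 lost its call without DMSO library a (limma adjusted p = 0.0915), DMSO library b (0.107) or UA library c (0.0509), and with total-count scaling (0.0738). Pdia4 and Pdia6, isomerases found in chaperone complexes with BiP, did not pass. Pdia4 was at 248 to 257 CPM with DMSO and 221 to 248.7 CPM with UA (log2 fold change -0.11 ± 0.07). Pdia6 was at 399 to 407 CPM with DMSO and 371 to 429 CPM with UA, a difference of -0.01 ± 0.07 with a 95% interval of -0.16 to 0.15.

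**Figure D4:**
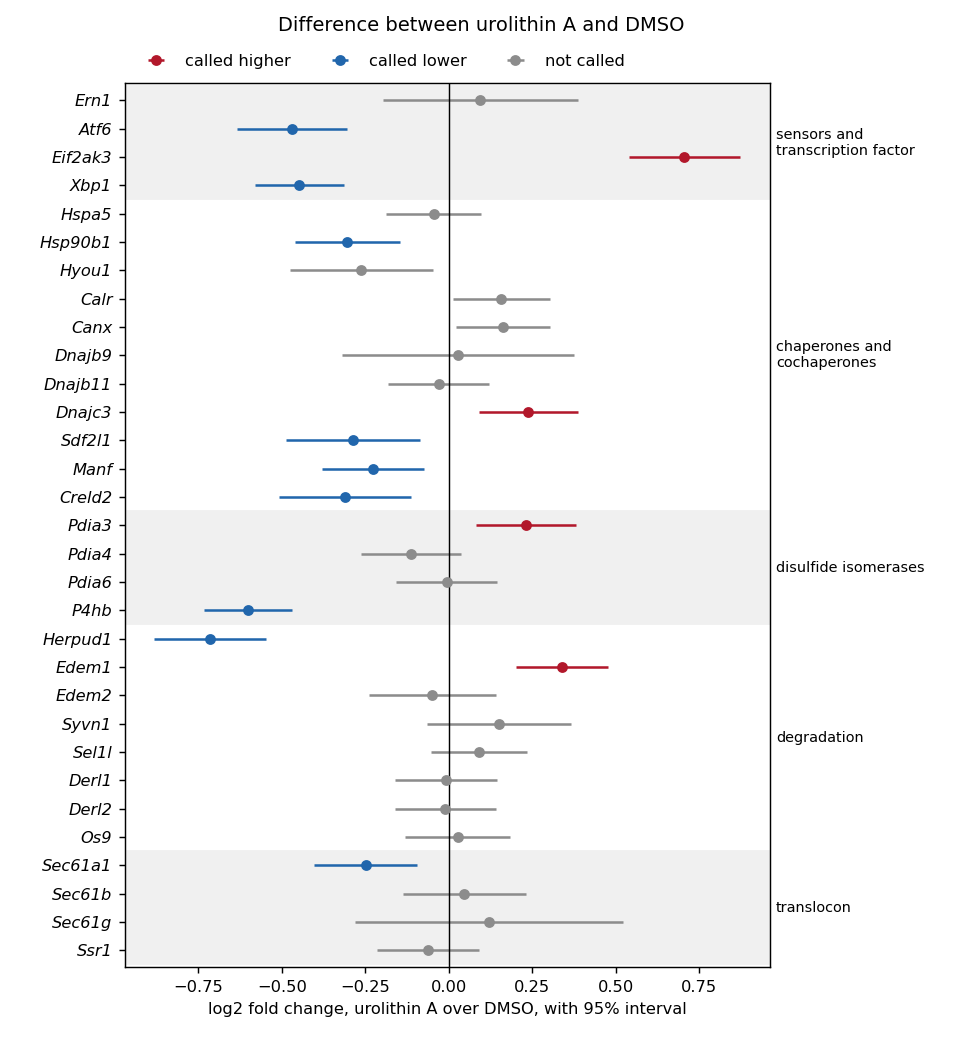
The log2 fold change of each gene is drawn with its 95% interval, in red where called higher, blue where called lower and grey where not called, grouped by role. Herpud1 at -0.72 and P4hb at -0.60 lie farthest to the left and Eif2ak3 at 0.71 farthest to the right.

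ER-associated degradation pulls misfolded chains back to the cytosol for ubiquitination and the proteasome. Of its 8 genes here, Edem1 rose, Herpud1 fell and 6 did not pass, so 25.0% were called, beside 33.7% of all genes tested. Herpud1 encodes a membrane protein that helps assemble the ligase complex and is a strong target of ER stress. Herpud1 (chromosome 8, 95113066 to 95122005) was at 126.4, 115.3 and 119.2 CPM with DMSO and at 74.95, 67.7 and 77.8 CPM with UA. Every UA library lay below every DMSO library, and Herpud1 fell by 39.1% (log2 fold change -0.72 ± 0.08, limma adjusted p = 7.79e-06), the largest fall of the 31 genes.

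Edem1 encodes a lectin-like mannosidase that marks misfolded glycoproteins for removal. Edem1 (chromosome 6, 108805602 to 108836317) was at 345, 362 and 359 CPM with DMSO and at 457, 449.9 and 441 CPM with UA. The groups were apart and the rise was 26.5% (log2 fold change 0.34 ± 0.06, limma adjusted p = 9.13e-04). Its relative Edem2 was at 86.3 to 95.4 CPM with DMSO and 75.9 to 93.95 CPM with UA and did not pass (log2 fold change -0.05 ± 0.09). Sel1l and Syvn1 encode the scaffold and the ubiquitin ligase HRD1 of the central complex. Sel1l was at 139.5, 146.1 and 141.1 CPM with DMSO and at 154.9, 149.5 and 149.7 CPM with UA. Its UA libraries were all above the DMSO libraries, but by little (log2 fold change 0.09 ± 0.07, limma adjusted p = 0.325). Syvn1, at 22.8 to 27.4 CPM with DMSO and 25.7 to 29.8 CPM with UA, had a log2 fold change of 0.15 ± 0.10 and overlapping groups. It overlaps the more abundant Mrpl49 on the other strand, at 70.1 CPM with DMSO, and its count is uncertain.

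Derl1 and Derl2, derlins that form the channel out of the ER, and Os9, a lectin that reads the trimmed sugars, hardly differed. Derl1 was at 131 to 141 CPM with DMSO and 129 to 140.1 CPM with UA. Derl2 was the steadiest of the 31 genes, at 68.1 to 69.1 CPM with DMSO and 67.5 to 68.7 CPM with UA, though it overlaps Mis12 on the other strand and its count too is uncertain. Os9 was at 143 to 158 CPM with DMSO and 144 to 160.0 CPM with UA. The 95% intervals of their log2 fold changes were -0.16 to 0.14 for Derl1, -0.16 to 0.14 for Derl2 and -0.13 to 0.18 for Os9. A further 6 genes of the set overlap transcripts that averaged at most 6.04 CPM with DMSO.

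The translocon passes new chains into the ER. Sec61a1, which encodes its pore-forming subunit, fell from 331, 323.5 and 309.9 CPM with DMSO to 279.3, 248.9 and 285 CPM with UA. The groups did not overlap (log2 fold change -0.25 ± 0.07, limma adjusted p = 0.0158). Its call ended without DMSO library a (limma adjusted p = 0.0650) or b (0.0527) and with total-count scaling (0.458). The small subunit genes Sec61b and Sec61g and the accessory gene Ssr1 did not pass. Sec61b was at 50.9 to 56.5 CPM with DMSO and 51.8 to 61.7 CPM with UA, and Ssr1 was at 296 to 325 and 291 to 321 CPM. Sec61g was the lowest of the 31 genes, at 3.13 to 3.69 CPM with DMSO and 3.32 to 4.03 CPM with UA, with an interval of -0.28 to 0.52 on the log2 scale. The subunits of 1 complex thus did not share a call, but the differences between them were not tested.

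The genes around the set were described with lists of the same response, of other ER functions and of cytosolic heat shock genes. They were counted against the same share of all genes tested. The PERK, ATF4 and CHOP arm was lower in 8 of its 10 genes (80%, beside 16.0% of all genes tested). It was higher in 1 (10%, beside 17.7%), and its median log2 fold change was -0.66. Atf4, the transcription factor whose translation PERK favours, was at 528.5, 556.9 and 527 CPM with DMSO and at 304, 260.4 and 308 CPM with UA (log2 fold change -0.89 ± 0.08, limma adjusted p = 6.91e-07). Ddit3, which encodes the proapoptotic factor CHOP, was at 40.4, 41.5 and 39.4 CPM with DMSO and at 19.8, 19.3 and 18.2 CPM with UA. It thus fell by 52.5%, while the PERK gene itself was 1.63-fold higher. Ppp1r15a encodes GADD34, which brings the phosphatase back to eIF2α, and fell from 46.7 ± 1.46 to 26.1 ± 2.80 CPM (SD, n = 3). Trib3, a pseudokinase that CHOP and ATF4 induce, fell from 65.9 ± 6.21 to 19.7 ± 0.168 CPM (log2 fold change -1.73 ± 0.10). Nfe2l2, which encodes the antioxidant factor NRF2 and is known as a PERK substrate, rose by 0.46 ± 0.09. Herpud1, whose window holds both the CARE core and an ERSE-II, was also lower. Whether that was linked to Atf4 or Ddit3 was not tested. The remaining gene of the arm, Atf3, named after its values were seen, had a log2 fold change of 0.16 ± 0.10 and did not pass. ATF4 also answers kinases other than PERK, which amino acid shortage and other stresses switch on, and transcript levels do not tell which was active. With total-count scaling, and without DMSO library b and UA library a together, 5 of the 10 were lower, and without UA library b 2 were higher.

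The list of further IRE1 and ATF6 genes held 2 higher and 1 lower of 12 tested, with a median of 0.05. The share called was 25%, beside 33.7% of all genes tested. Map3k5, the kinase ASK1 that acts after IRE1 in stress-induced death, rose from 77.4 ± 2.26 to 103 ± 5.73 CPM. Atf6b, the relative of Atf6, was at 49.9 ± 5.67 CPM with DMSO and fell to 37.9 ± 5.78 CPM, by 0.40 on the log2 scale (limma adjusted p = 0.0171), a call lost without DMSO library a (limma adjusted p = 0.0860) or b (0.0650) and with total-count scaling (0.128). Of 27 other ER foldases tested, 2 were higher and 5 lower (25.9% called, beside 33.7% of all genes tested), with a median of 0.0041. Ero1a, the oxidase that reoxidises PDI and a known target of the hypoxia factor HIF, was at 322.5, 379.6 and 414 CPM with DMSO and at 152.0, 181.9 and 126.6 CPM with UA. Ero1a thus fell by 58.9%. P4hb, the gene of its partner, was also lower, and a link between them was not tested. Fkbp10, a prolyl isomerase at 0.452 ± 0.181 CPM with DMSO and 1.29 ± 0.329 CPM with UA, was called higher from few counts, and that call was lost without DMSO library c (limma adjusted p = 0.0593). That left 0 of the foldases higher, and 1 was higher without DMSO library a or b or UA library a or c.

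Of 17 genes of N-glycosylation and the lectin cycle, 2 were higher and 3 lower, with a median of -0.13. Called genes made up 29.4%, beside 33.7% of all genes tested. Mlec, which encodes the lectin malectin, rose from 511 ± 18.9 to 816 ± 68.6 CPM (log2 fold change 0.67 ± 0.07). Mogs, the glucosidase that trims the first glucose, fell from 230.2 ± 18.5 to 124.8 ± 22.2 CPM (log2 fold change -0.90 ± 0.12). Of 20 further genes of the translocon, the signal recognition particle and the signal peptidase, 4 were higher and 2 lower. Their share called was 30%, below that of all genes tested. Spcs3, a signal peptidase subunit, rose by 0.44 ± 0.07 and Srp19, a protein of the signal recognition particle, fell by 0.35 on the log2 scale. Without UA library c 4 of that list were lower, without any other single library 1 was, and without DMSO library b 2 were higher. Of 21 other degradation genes 3 were higher and 3 lower (28.6% called, beside 33.7% of all genes tested). Aup1, a lipid droplet and degradation factor, had a log2 fold change of -0.36 ± 0.08 and the ligase gene Rnf139 one of 0.24 ± 0.08. The call of Rnf139 was lost without DMSO library a, DMSO library b or UA library a (limma adjusted p = 0.0824, 0.167 and 0.107). With total-count scaling the calls of Rnf139, Aup1 and Srp19 were lost (0.0990, 0.170 and 0.219). The count of higher genes in that list was 0 with any 1 of these 3 libraries left out, 5 without UA library b, and 1 without DMSO library c or UA library c.

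Receptors of ER-phagy, which deliver pieces of the ER to lysosomes, were higher in 4 of 9 genes (44.4%, beside 17.7% of all genes) and lower in none, with a median of 0.29. Calcoco1, a soluble receptor of this kind, was at 10.3, 8.77 and 9.39 CPM with DMSO and at 21.0, 24.1 and 24.3 CPM with UA. The groups were far apart (log2 fold change 1.27 ± 0.12, limma adjusted p = 1.63e-06). Without DMSO library b and UA library a together, 2 of the 9 receptors were higher. Of 21 genes of COPII vesicles and ER exit, 2 were higher and 5 lower (33.3% called, beside 33.7% of all genes tested). Sec23b, a COPII coat gene, rose by 0.28 ± 0.07, and Lman1, the cargo receptor ERGIC-53, fell by 0.37 on the log2 scale. Without DMSO library a, b or c, or UA library a, 3 of the COPII list were lower. Without DMSO library a or b 1 was higher, and without UA library b 4 were. The call of Lman1 was lost with total-count scaling (limma adjusted p = 0.146), and that of Sec23b without DMSO library b and UA library a together (0.0993). Of 13 cytosolic heat shock genes, 8 were lower (61.5%, beside 16.0% of all genes) and none higher, with a median of -0.32. Hsp90aa1, the inducible cytosolic Hsp90 and a relative of Hsp90b1, was at 328, 385 and 396 CPM with DMSO and at 227, 253.6 and 238 CPM with UA. Hsp90aa1 thus fell by 35.1%, and its groups did not overlap. With total-count scaling 2 of the heat shock genes were lower, and without DMSO library b and UA library a together 5 were.

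**Figure D5:**
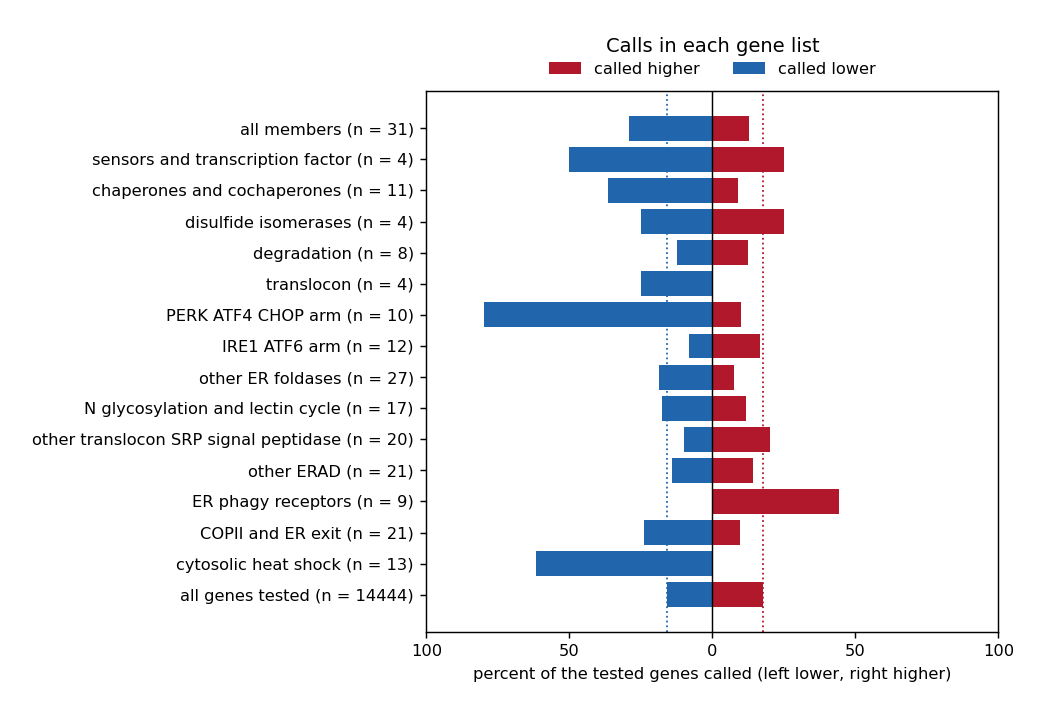
Bars give the percent of tested genes called lower (left, blue) and higher (right, red) with UA for the 31 genes, their 5 roles, the 9 related lists and all genes tested, with dotted lines at the shares of all genes (16.0% and 17.7%). The PERK, ATF4 and CHOP arm reaches 80.0% lower and the ER-phagy receptors 44.4% higher.

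Levels per length were also compared within the set. Per kilobase of exon, the most abundant transcripts with DMSO were P4hb, Calr at 322 ± 5.05 CPM per kb, Canx at 276 ± 15.2, Hspa5 at 242 ± 5.36 and Xbp1 at 202.0 ± 3.57. With UA the order began with Calr at 360.4 ± 25.9 CPM per kb, Canx at 309 ± 9.85 and P4hb. P4hb was above Hspa5 at 235 ± 14.3. Herpud1 went from rank 15 to rank 20 of the 31 genes. UA library b stood at the low end of its group for 17 of the 31 genes, against 39.0% of all genes tested, Creld2, Sdf2l1, Hyou1 and Hspa5 among them. DMSO library c did so in its group for 16 of the 31, against 36.2% of all genes. UA library c stood at the high end of its group for 16 of the 31, against 31.7%. Without UA library b 12 of the 13 calls remained and Calr was added.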

How the data were processed

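RNA was taken from T cells with a column kit and 200 ng went into stranded mRNA libraries, per the labels' protocols. Per the submitters' processing notes, bcl2fastq 2.20.0.422, FastQC, STAR 2.5.2a, DESeq2 and mm10 were used. The sources used here name no counting program, strand setting or annotation, which are thus not given. The values were recorded with the unit other, because the whole numbers of the deposited table carry a decimal comma. Read that way they were whole counts per gene, as the authors deposited them. Both deposited files hold the same values, so 1 was used, and 3 per-library columns that match no labelled sample were left out. The table's coordinates are not those of mm10 annotation and no header or label names their build.

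The test covered 14444 genes, those that reached 15 counts in all and, in 3 or more libraries, the equivalent of 10 counts at median library size. CPM were counts per 1000000 after scaling by trimmed means of M values (30% of M, 5% of A). The test was voom (offset 0.5) with robust eBayes (limma 3.58.1, R 4.3.3), with group as its only term and Benjamini-Hochberg adjustment over all genes tested. It was tested on simulated data. Libraries of a group differed beyond counting error (chi-square per degree of freedom 8.06 to 24.8). Exon lengths are from GENCODE M21 and cover all 31 genes. Alternatives were scaling, filters, pseudocounts, weights, the letters as a block, and libraries left out. The genes, lists and tests were chosen with earlier results of these data known. The text names all 31 genes, the gene with the smallest p in each direction of a related list (the rule allowed 2), and Atf4, Ddit3, Trib3 and Ppp1r15a. Outside that rule it names Atf3, chosen after its values were seen, marker genes, and genes that overlap a member.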

Additional observations from a re-analysis of the deposited data

How the results depend on the processing

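Of the 13 calls, 6 held under all 17 alternatives, 7 were lost under at least 1, 2 further genes (Hyou1 and Calr) were called under at least 1, and 16 were never called. Sample quality weights called Hyou1 (limma adjusted p = 0.0339) and Calr (0.0146). Total-count scaling gave 3169 genes called and 6 of the set, 2 higher and 4 lower, with a median log2 fold change of 0.080. Without DMSO library b and UA library a together, 2666 genes and 6 of the set were called, 2 higher and 4 lower. When 1 library was left out, 3490 to 5274 genes and 7 to 13 of the set were called, 2 to 5 higher and 5 to 10 lower, and the median ran from -0.0499 to 0.0195. No label says that the letters pair samples, so the main fit had no block. Deviations of same-lettered libraries from their group means had r of 0.0749, -0.144 and -0.0827 for a, b and c. With 3 libraries a group these values can neither show nor exclude pairing. With the letters as a replicate block, 4496 genes were called and the same 13 of the set, and no call of the set changed. The higher genes among other degradation genes then numbered 1 and the lower COPII genes 3.

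Some genes that were not called changed sign under at least 1 alternative. Hyou1, Calr, Canx, Pdia4, Syvn1, Sel1l and Sec61g kept theirs under all 17. With total-count scaling the log2 fold change was 0.045 for Hspa5, 0.060 for Dnajb11, 0.085 for Pdia6, 0.042 for Edem2, 0.083 for Derl1, 0.080 for Derl2 and 0.028 for Ssr1. A stricter filter of 50 counts gave 0.0073 for Pdia6, 0.0054 for Derl1 and 0.00279 for Derl2. Sample weights gave -0.0395 for Dnajb9, 0.027 for Pdia6, 0.030 for Edem2 and 0.017 for Derl1, and leaving out both libraries gave -0.010 for Dnajb9 and -0.022 for Os9. With 1 library left out the log2 fold changes ran from -0.0499 to 0.024 for Derl1, -0.146 to 0.153 for Dnajb9, -0.022 to 0.069 for Os9, -0.018 to 0.095 for Sec61b, -0.063 to 0.216 for Ern1, -0.0795 to 0.0065 for Hspa5, -0.0698 to 0.0195 for Dnajb11, -0.049 to 0.056 for Pdia6 and -0.128 to 0.0499 for Edem2. The cause was not tested.

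In the related lists, total-count scaling left 0 lower genes of the IRE1 and ATF6 list, 3 of the foldases, 0 of the further translocon genes and 1 of the COPII genes, and 0 called in either direction among other degradation genes. With both libraries left out, 1 gene of the IRE1 and ATF6 list was higher and 0 lower, 1 foldase and 1 gene of the glycosylation list were higher, 2 further translocon genes were higher and 0 lower, 0 other degradation genes were called, and 0 COPII genes were higher and 2 lower. The spread between 3 libraries a group limits the precision, and for Sec61g, Dnajb9 and Ern1 so does the low count.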
